A study of Mus musculus with 6 samples.

Results

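The genes described are 45 mouse genes of the endoplasmic reticulum (ER) that act in protein translocation, folding, N-glycosylation and quality control, and the sensors that watch over them. They were taken by gene symbol from a list of 45 names, all 45 of which were found among the 41325 gene rows of each file. The data are bulk RNA-seq of 6 libraries from female ICR mice, an outbred stock, bought at 10 weeks of age. All mice received 5-fluorouracil (5-FU), an antimetabolite that blocks thymidylate synthesis, by intraperitoneal injection of 20 mg/kg on 2 days a week for 3 weeks. The elemental diet group has 3 libraries, from mice dosed by mouth with Elental, a formula in which free amino acids take the place of protein, at 1.6 kcal in 0.8 mL per day, on 5 days a week for 3 weeks. The saline group, labelled control diet, has 3 libraries, from mice dosed with the same volume of saline on the same schedule. For both groups 2 dosings per day and 7 days of habituation are given. Both groups carried the same 5-FU treatment and were kept on a commercial chow, so a mouse without 5-FU is not part of the comparison.

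The tissue label is salivary gland, whereas the text on RNA extraction speaks of fibroblasts or keratinocytes. Of 26 salivary acinar and duct markers only 5 reached 1 CPM (read counts scaled to a common library size) in every library, and Smgc, Pip, Bpifa1, Prb1, Dcpp1 and Dcpp3, all of them genes of secreted gland products, had no read in any library. The summed level of the list was 55.6 to 61.7 CPM with elemental diet and 89.3 to 95.4 CPM with saline. Most of that was Slc12a2, an ion transporter gene that many cell types express, at 42.01 ± 3.04 CPM with elemental diet and 51.2 ± 3.69 CPM with saline (SD, n = 3 libraries each). The tissue is therefore given only as its label. Each library held 29053287 to 33073125 reads assigned to genes, and the lowest count of any of the 45 genes in any library was 208 reads. The labels give 3 mice per group without saying that each library is 1 mouse, so a p-value here speaks of the spread among libraries, which may be technical.

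Proteins destined for secretion or for membranes enter the ER through the SEC61 channel, with the TRAP complex beside it. Signal peptidase removes the targeting sequence and the oligosaccharyltransferase (OST) attaches the glycan while the chain is still entering. The lectins calnexin and calreticulin, protein disulfide isomerases and the chaperone BiP then fold the chain, and molecules that fail are returned to the cytosol by ER-associated degradation (ERAD). When unfolded protein accumulates, the sensors IRE1 (encoded by Ern1), ATF6 and PERK raise the transcription of these components in the unfolded protein response. Plasma cells, which secrete antibody, are known for high levels of this machinery.

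The stress-response element ERSE, the sequence that ATF6 and XBP1 recognise with NF-Y, links several of these genes, and it is shown here because the genes that carry it went in different directions. It was searched on both strands as CCAAT, then 9 bases of any kind, then CCACG, in the window from 250 bases before to 50 bases after each gene's start (RefSeq, GRCm38.p6). Of the 45 genes 35 were matched to such a window. Those not matched were Atf6, Sec61a1, Ssr2, Spcs3, Sec11c, Ostc, Hyou1, Manf, Derl1 and Lman1. An ERSE stood in 5 of the 35 (14.3%) and in 37 of 27025 genes with a window (0.137%). The related ERSE-II, ATTGG then 1 base then CCACG, stood in Herpud1 alone among the 35 and in 12 genes in all (0.0444%). The element TGACGTGG, called UPRE, was in none of the 35 windows and in 193 genes in all (0.714%). A match is a description of the sequence and not evidence of binding.

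The 250 bases before the start are printed for the ERSE genes with the largest rise (Canx) and the largest fall (Syvn1) and for the ERSE-II gene (Herpud1), 5′ to 3′ on the strand of the gene, with the motif in capitals. Canx lies on the minus strand (chr11:50325674-50325923), Syvn1 on the plus strand (chr19:6046326-6046575) and Herpud1 on the plus strand (chr8:94386179-94386428).
Canx: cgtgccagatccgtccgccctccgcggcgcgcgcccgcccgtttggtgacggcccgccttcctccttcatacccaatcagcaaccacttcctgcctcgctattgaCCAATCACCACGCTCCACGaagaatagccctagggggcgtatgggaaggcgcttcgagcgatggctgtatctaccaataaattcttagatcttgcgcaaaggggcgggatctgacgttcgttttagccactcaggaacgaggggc
Syvn1: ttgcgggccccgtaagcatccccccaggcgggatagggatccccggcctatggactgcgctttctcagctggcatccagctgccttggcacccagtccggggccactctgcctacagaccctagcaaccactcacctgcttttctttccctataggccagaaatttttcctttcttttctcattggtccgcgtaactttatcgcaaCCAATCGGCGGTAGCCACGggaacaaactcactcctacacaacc
Herpud1: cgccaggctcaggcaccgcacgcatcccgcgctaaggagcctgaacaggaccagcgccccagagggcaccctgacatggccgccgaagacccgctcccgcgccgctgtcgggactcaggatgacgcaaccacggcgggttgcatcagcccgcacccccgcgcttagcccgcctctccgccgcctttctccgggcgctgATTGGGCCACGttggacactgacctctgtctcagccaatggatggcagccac

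The motif with 10 bases on each side is printed for the other ERSE genes, again on the strand of the gene. Calr (minus strand, chr8:84847065-84847103) and Creld2 (plus strand, chr15:88819510-88819548) hold it in the reverse direction, so that their capitals begin with CGTGG and end with ATTGG. Pdia6 (plus strand, chr12:17266481-17266519) holds it in the forward direction.
Calr: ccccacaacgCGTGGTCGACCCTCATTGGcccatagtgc
Pdia6: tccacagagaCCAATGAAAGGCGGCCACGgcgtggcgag
Creld2: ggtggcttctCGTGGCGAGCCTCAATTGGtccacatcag

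The motif began 162 bases before the start in Calr, 145 in Canx, 126 in Creld2, 98 in Pdia6, 52 in Herpud1 and 44 in Syvn1. Within this set Canx, Calr and Pdia6 were higher with elemental diet, Syvn1 and Herpud1 were lower, and Creld2 did not pass the test.

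The design sets elemental diet against saline in mice that all receive 5-FU. The entry and glycosylation machinery was mostly higher with elemental diet, while the sensors and 5 of 8 ERAD genes were lower. With edgeR's quasi-likelihood test over 18303 genes and a Benjamini-Hochberg adjusted p under 0.05, 28 of the 45 genes rose, 13 fell and 4 (Pdia5, Creld2, Edem3 and Derl2) did not pass. Of all genes tested, 38.0% were higher and 40.2% were lower by the same rule, so that passing the test was common. The median log2 fold change was 0.35 over the 45 genes and -0.083 over all genes tested. The range was narrow, from -0.90 for Syvn1 to 1.56 for Sec61g, and 6 genes were over 2-fold higher while none of the 45 was over 2-fold lower. The values of the groups did not overlap in 42 of the 45 genes, against 81.0% of all genes tested. Tested against a fold of 1.5, 13 of the 45 were higher and 4 lower, against 50.8% of all genes called in either direction.

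The direction of small differences depended on how the libraries were scaled to each other. The main scaling (TMM) put the median of all genes at -0.083, RLE at -0.038, upper quartile at -0.35 and library totals alone at -0.39 on the log2 scale. With TMM 28 of the 45 genes were higher and 13 lower. With RLE 29 were higher and 12 lower, against 39.1% and 38.9% of all genes tested. With upper quartile scaling 21 were higher and 16 lower, against 30.6% and 49.5% of all genes, and with library totals 19 were higher and 17 lower, against 29.5% and 50.6%. Under these 4 scalings 19 genes were called higher each time and 12 lower each time, and the call of 13 differed. The share of all genes that kept a call under all 4 scalings was not taken. A call held under all 4 is therefore given gene by gene, without such a share beside it. The median of the 45 genes lay 0.44 above the median of all genes with TMM and with library totals. Scaling moves all genes by nearly the same amount, so this distance could hardly change with it. With exon reads alone the distance was 0.34, and with intron reads alone it was 0.011. The values below are TMM-scaled CPM, and a gene whose call changed with the scaling is named as such.

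**Figure D1:**
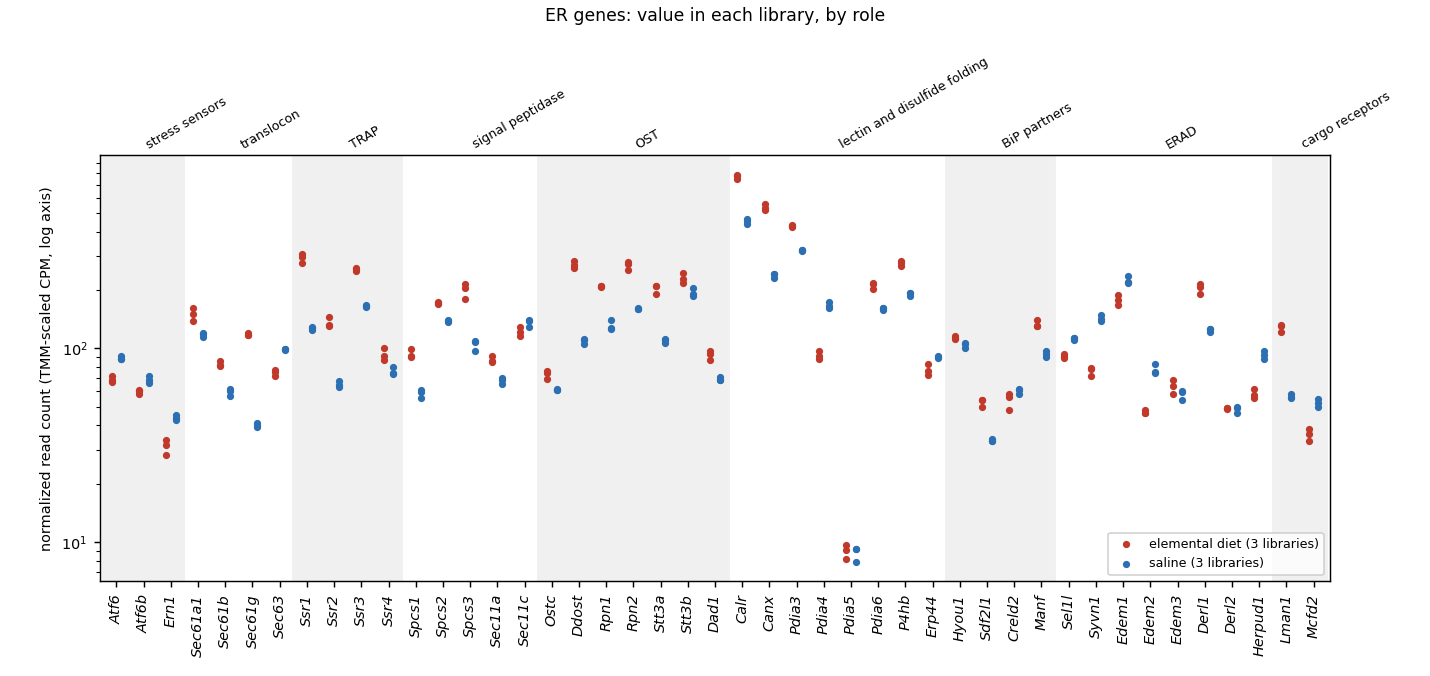
Normalized read count (TMM-scaled CPM, log axis) of each of the 45 genes in each library, grouped by role, with the 3 elemental diet libraries left of the 3 saline libraries. The groups did not overlap in 42 of the 45 genes, and Calr was the highest and Pdia5 the lowest in both groups on this scale, which is not corrected for gene length.

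**Figure D2:**
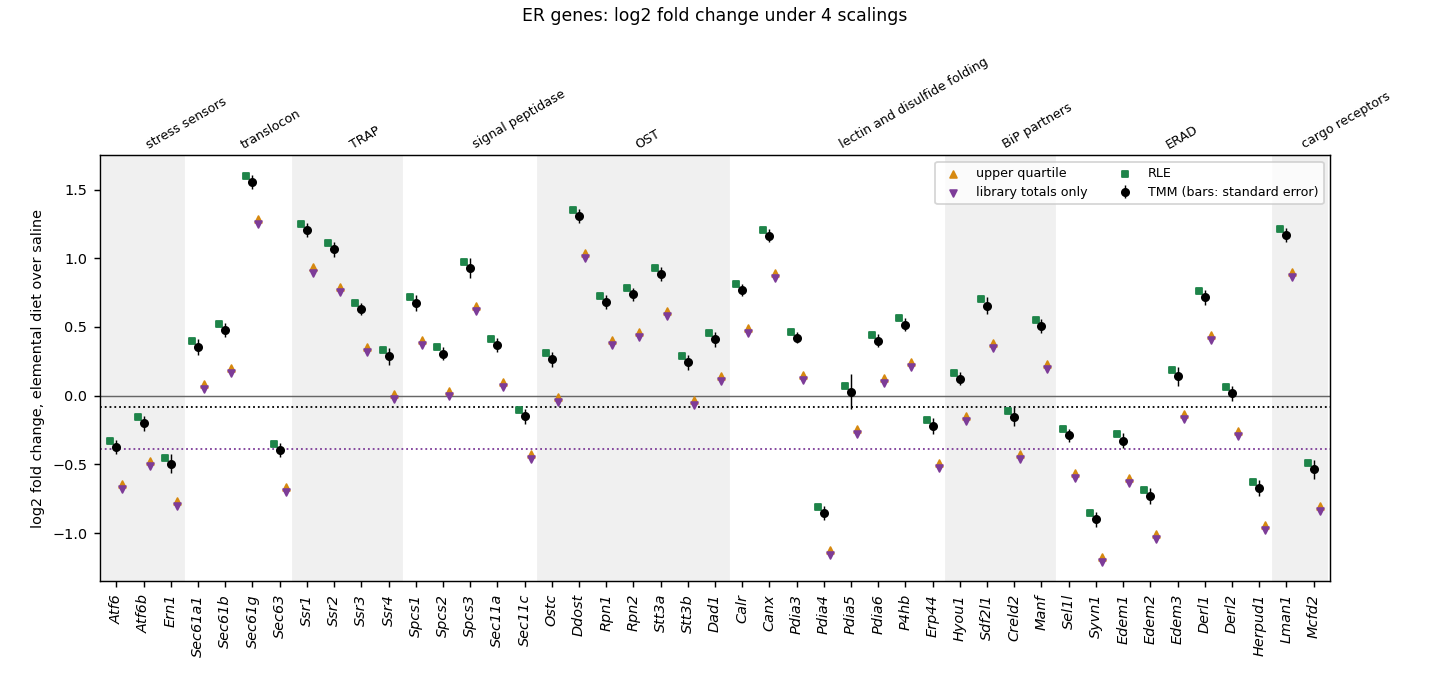
Log2 fold change of each gene, elemental diet over saline, under 4 scalings, with the standard error of the TMM fit as bars and dotted lines at the median of all genes under TMM (black) and under library totals (purple). The sensors lie below 0 under all 4 scalings, whereas genes such as Ostc, Stt3b, Spcs2 and Hyou1 cross 0.

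Markers of several cell types differed between the groups, and bulk RNA does not tell fewer cells of a type from less RNA per cell. Of 20 plasma cell markers 19 fell and 1, Sdc1, rose, and their summed level was 3422 to 4009 CPM with elemental diet and 23887 to 27005 CPM with saline. All 10 B cell markers fell (983 to 1040.1 CPM with elemental diet and 6819 to 7098 CPM with saline), as did all 14 T cell markers (97.02 to 110.4 CPM with elemental diet and 700.3 to 881 CPM with saline) and all 16 macrophage and dendritic cell markers (2137 to 2332 CPM with elemental diet and 9864 to 10192 CPM with saline). All 14 erythroid markers rose (44551 to 45691 CPM with elemental diet and 2939.9 to 4642 CPM with saline), and so did all 10 markers of neutrophils and their precursors (254 to 293 CPM with elemental diet and 10.4 to 13.1 CPM with saline) and all 14 markers of dividing cells (6304 to 7252 CPM with elemental diet and 307 to 325 CPM with saline). No marker of these lists was at 0 in all libraries. These shifts lay between the same groups as every difference given here, and their part in those differences was not tested.

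The sensors all fell. Atf6, the membrane-bound transcription factor released by stress (chromosome 1, 170704674 to 170867771, GRCm38), stood at 67.1, 68.5 and 71.7 CPM with elemental diet, against 88.4, 91.7 and 88.6 CPM with saline. Its paralog Atf6b, a weaker activator, stood at 58.00, 61.03 and 60.4 CPM with elemental diet, against 68.5, 66.1 and 71.6 CPM with saline. Ern1, which encodes the kinase and endonuclease IRE1, stood at 28.2, 31.7 and 33.5 CPM with elemental diet, against 43.5, 45.3 and 42.9 CPM with saline. In each of these 3 genes every elemental diet library lay below every saline library. The fall was largest for Ern1 (log2 fold change -0.49 with SE 0.07, adjusted p = 1.82e-05), smaller for Atf6 (log2 fold change -0.37 with SE 0.05, adjusted p = 9.97e-06) and smallest for Atf6b (log2 fold change -0.20 with SE 0.05, adjusted p = 0.00344, edgeR). All 3 were lower under all 4 scalings, while DESeq2's test gave Atf6b an adjusted p = 0.0545.

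Per length, Atf6b was the more abundant of the paralogs, at 54.5 ± 0.474 TPM with elemental diet and 80.2 ± 3.70 TPM with saline (SD, n = 3 libraries each), whereas Atf6 stood at 18.2 ± 0.550 TPM with elemental diet and 28.8 ± 1.10 TPM with saline. Ern1 was second lowest of the 45 genes, at 8.47 ± 0.862 TPM with elemental diet and 16.1 ± 0.425 TPM with saline. TPM is a share of all transcripts in a library and is not corrected for composition. It is used here for levels between genes and not as the test between groups. It divides by the exon length of the whole gene, so a level between genes also depends on that length.

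Of 18 tested further factors and targets of the unfolded protein response, 7 rose and 9 fell, with a median log2 fold change of -0.089, and library totals gave 7 higher and 11 lower. Of all genes tested 38.0% rose and 40.2% fell, and with library totals 29.5% and 50.6%. Crebrf, a regulator that promotes the loss of the stress factor CREB3 (known from human cells), fell to 35.4 ± 0.293 CPM with elemental diet, against 110.3 ± 2.79 CPM with saline (log2 fold change -1.64 with SE 0.05, adjusted p = 1.48e-12). Ppp1r15a and Ppp1r15b, which direct the removal of phosphate from eIF2alpha and so reopen translation, both rose, 2.99-fold and 2.81-fold. The following were chosen after their values were seen. Xbp1, whose mRNA is spliced by IRE1, stood at 98.2, 94.5 and 92.5 CPM with elemental diet, against 218, 215 and 224 CPM with saline (log2 fold change -1.20 with SE 0.05, adjusted p = 2.19e-11). The read counts are per gene and do not separate its spliced form. Eif2ak3, the gene of PERK, fell 1.84-fold, so that all the sensor genes measured were lower. Atf4 and Trib3 of the same list rose 2.24-fold and 2.77-fold and were called higher under all 4 scalings. Trib3 was low in both groups, at 2.61 ± 0.363 CPM with elemental diet and 0.939 ± 0.195 CPM with saline. Hspa5, the gene of BiP, stood at 534 ± 6.24 CPM with elemental diet and 401 ± 4.70 CPM with saline (log2 fold change 0.41 with SE 0.04, adjusted p = 6.78e-07). Hsp90b1, the ER form of HSP90, had a log2 fold change of 0.0078 and did not pass (adjusted p = 0.883). With library totals alone Hspa5 was called higher and Hsp90b1 was called lower.

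The subunits of the translocon did not move together. Sec61g, the small gamma subunit (chromosome 11, 16500530 to 16508484), stood at 120.4, 117 and 117 CPM with elemental diet, against 40.2, 39.04 and 41.1 CPM with saline, a 2.94-fold rise and the largest of the 45 genes (log2 fold change 1.56 with SE 0.05, adjusted p = 2.20e-12). Of its reads 16.9% were counted as unique, the lowest share of the 45 genes, so its count is uncertain where near-identical copies share reads. With unique reads alone its log2 fold change was 1.66. Sec61b, the beta subunit, stood at 81.1, 85.6 and 81.9 CPM with elemental diet, against 61.6, 56.8 and 60.4 CPM with saline, and rose 1.39-fold. Sec61a1, the subunit that forms the pore, stood at 139, 162 and 151 CPM with elemental diet, against 114, 119 and 120.0 CPM with saline (log2 fold change 0.35 with SE 0.06, adjusted p = 7.12e-05). Its log2 fold change was 0.082 (adjusted p = 0.142) with upper quartile scaling and 0.045 (adjusted p = 0.389) with library totals alone, so this call rests on the scaling. Sec63, the membrane partner that brings BiP to the channel, stood at 72.3, 75.2 and 77.6 CPM with elemental diet, against 98.6, 98.1 and 99.5 CPM with saline, and fell (log2 fold change -0.40 with SE 0.05, adjusted p = 4.56e-06). The groups did not overlap in any of these 4 genes.

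All 4 genes of the TRAP complex, which sits beside the channel, rose with TMM and RLE, and 3 of them under all 4 scalings. Ssr1, the alpha subunit (chromosome 13, 37966605 to 37994217), stood at 277, 307 and 296 CPM with elemental diet, against 125, 129 and 127 CPM with saline (log2 fold change 1.21 with SE 0.05, adjusted p = 4.07e-11). Ssr2, the beta subunit, stood at 132, 145 and 130.4 CPM with elemental diet, against 67.5, 62.98 and 64.4 CPM with saline, and Ssr3, the gamma subunit, at 249, 259 and 256 CPM with elemental diet, against 163, 165 and 167 CPM with saline. These were rises of 2.09-fold and 1.55-fold, without overlap of the groups. Ssr4, the delta subunit, stood at 87.3, 100.1 and 91.2 CPM with elemental diet, against 73.6, 80.1 and 74.95 CPM with saline, a 1.22-fold rise by the main test, and its log2 fold change was 0.013 (adjusted p = 0.827) with upper quartile scaling and -0.024 (adjusted p = 0.688) with library totals alone. Per length the complex was unevenly represented in both groups, with mean TPM of 72.9 to 171 with elemental diet and 41.7 to 136 with saline.

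Among the signal peptidase genes Spcs3 and Spcs1 rose most. Spcs3, a subunit needed for activity, stood at 180.2, 204 and 215 CPM with elemental diet, against 96.96, 109.7 and 108 CPM with saline (log2 fold change 0.93 with SE 0.07, adjusted p = 5.85e-08). Spcs1, an accessory subunit, stood at 98.8, 90.8 and 90.5 CPM with elemental diet, against 55.2, 59.5 and 60.8 CPM with saline (log2 fold change 0.68 with SE 0.06, adjusted p = 8.56e-08). Spcs1 shares 16.3% of its exon bases with Glt8d1 on the other strand, and no source used here says whether reads were counted by strand. Glt8d1 itself had a log2 fold change of -0.056. Spcs2 stood at 170.3, 172 and 172 CPM with elemental diet, against 141, 137 and 139 CPM with saline, a 1.24-fold rise, with a log2 fold change of 0.035 (adjusted p = 0.423) with upper quartile scaling and -0.0020 (adjusted p = 0.964) with library totals alone.

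The alternative catalytic subunits of signal peptidase went apart. Sec11a stood at 85.3, 91.6 and 86.4 CPM with elemental diet, against 70.1, 65.2 and 68.5 CPM with saline (log2 fold change 0.37 with SE 0.05, adjusted p = 1.87e-05). Sec11c (chromosome 18, 65800549 to 65817665) stood at 116, 129 and 121 CPM with elemental diet, against 138, 129 and 140.1 CPM with saline (log2 fold change -0.15 with SE 0.05, adjusted p = 0.0217), and 1 elemental diet library lay within 1 CPM of the lowest saline library. The call for Sec11c was lost with RLE scaling (adjusted p = 0.105), in DESeq2's test (adjusted p = 0.186) and without elemental diet replicate 1, elemental diet replicate 3 or saline replicate 3 (adjusted p = 0.0757, 0.0701 and 0.0565). The call for Sec11a was lost with upper quartile scaling (adjusted p = 0.0787) and library totals (adjusted p = 0.252).

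All 7 OST genes rose with TMM and RLE, and 4 of them (Ddost, Rpn1, Rpn2 and Stt3a) under all 4 scalings. Ddost, which encodes the OST48 subunit (chromosome 4, 138304730 to 138312628), stood at 259.7, 282 and 268 CPM with elemental diet, against 105, 110.2 and 112 CPM with saline (log2 fold change 1.31 with SE 0.05, adjusted p = 1.60e-11). Rpn1 and Rpn2, the ribophorins, which hold the complex near the ribosome and the channel, rose 1.60-fold and 1.67-fold. Rpn2 stood at 253, 278 and 274 CPM with elemental diet, against 160.2, 162 and 160.5 CPM with saline. Dad1, a small subunit shared by all forms of the complex, stood at 93.9, 96.5 and 86.9 CPM with elemental diet, against 68.5, 68.9 and 71.3 CPM with saline (log2 fold change 0.41 with SE 0.05, adjusted p = 7.86e-06), with a log2 fold change of 0.14 (adjusted p = 0.0268) with upper quartile scaling and 0.10 (adjusted p = 0.0898) with library totals alone.

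The OST exists with either of 2 catalytic subunits, STT3A, which works as the chain enters through the channel, and STT3B, which also modifies sites that were skipped. Stt3a stood at 190.4, 208 and 209 CPM with elemental diet, against 107, 110.2 and 112 CPM with saline (log2 fold change 0.89 with SE 0.05, adjusted p = 1.39e-09). Stt3b stood at 218, 227 and 245 CPM with elemental diet, against 187, 204 and 192 CPM with saline (log2 fold change 0.24 with SE 0.06, adjusted p = 0.00119), and its log2 fold change was -0.029 (adjusted p = 0.582) with upper quartile scaling and -0.066 (adjusted p = 0.199) with library totals alone. Ostc, an adaptor of the STT3A form, stood at 76.8, 74.3 and 69.2 CPM with elemental diet, against 60.6, 61.7 and 61.2 CPM with saline (log2 fold change 0.26 with SE 0.05, adjusted p = 4.75e-04), and turned to -0.0067 (adjusted p = 0.913) with upper quartile scaling and -0.043 (adjusted p = 0.491) with library totals alone. Of the subunits outside the 45 genes, all but Tmem258 chosen after their values were seen, Ost4 and Tmem258, which both forms contain, rose 1.79-fold and 1.89-fold. Magt1, an oxidoreductase of the STT3B form, rose 1.53-fold, while its paralog Tusc3 (log2 fold change -0.039, adjusted p = 0.655) and Krtcap2, a subunit of the STT3A form (log2 fold change -0.12, adjusted p = 0.155), did not pass. Both were called lower with upper quartile scaling and library totals. The rise within the glycosylation complex thus included Ddost, Rpn1, Rpn2 and Stt3a under every scaling and was small or unsettled for Stt3b, Ostc and Dad1.

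Ratios of paired subunits or paralogs, taken from the authors' TPM within a library, do not depend on the scaling between libraries. The log2 ratio of Stt3a to Stt3b was -1.17, -1.11 and -1.20 with elemental diet, against -1.73, -1.80 and -1.73 with saline. On a linear scale the ratio of TPM was 0.447 with elemental diet and 0.297 with saline. Its level rests on the exon lengths, 8948 bases for Stt3a and 4221 for Stt3b. The log2 ratio of Sec11c to Sec11a was 1.07, 1.15 and 1.15 with elemental diet, against 1.86, 1.90 and 1.93 with saline. Per length Sec11c was the more abundant form in both groups, by 2.18-fold with elemental diet and 3.72-fold with saline. The log2 ratio of Atf6 to Atf6b was -1.59, -1.62 and -1.55 with elemental diet, against -1.49, -1.35 and -1.59 with saline, and these groups overlapped.

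Among ERAD paralogs, the log2 ratio of Derl1 to Derl2, both channels for substrates leaving the ER, was 3.28, 3.43 and 3.47 with elemental diet, against 2.74, 2.75 and 2.75 with saline. Of the mannose-trimming Edem genes, Edem1 to Edem2 gave 1.06, 1.16 and 1.16 with elemental diet, against 0.909, 0.868 and 0.823 with saline. Edem3 to Edem2 gave -0.481, -0.426 and -0.212 with elemental diet, against -1.17, -1.07 and -1.22 with saline. In 5 of the 6 ratios the groups did not overlap, with p = 0.1 in a two-sided exact permutation test (0.12 after adjustment over the 6 ratios). With 3 libraries against 3 no smaller p can be had. For Atf6 to Atf6b the exact permutation p was 0.200. The differences between group means (log2, elemental diet minus saline) were 0.59 for Stt3a to Stt3b, -0.77 for Sec11c to Sec11a, 0.64 for Derl1 to Derl2, 0.26 for Edem1 to Edem2, 0.78 for Edem3 to Edem2 and -0.11 for Atf6 to Atf6b.

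**Figure D3:**
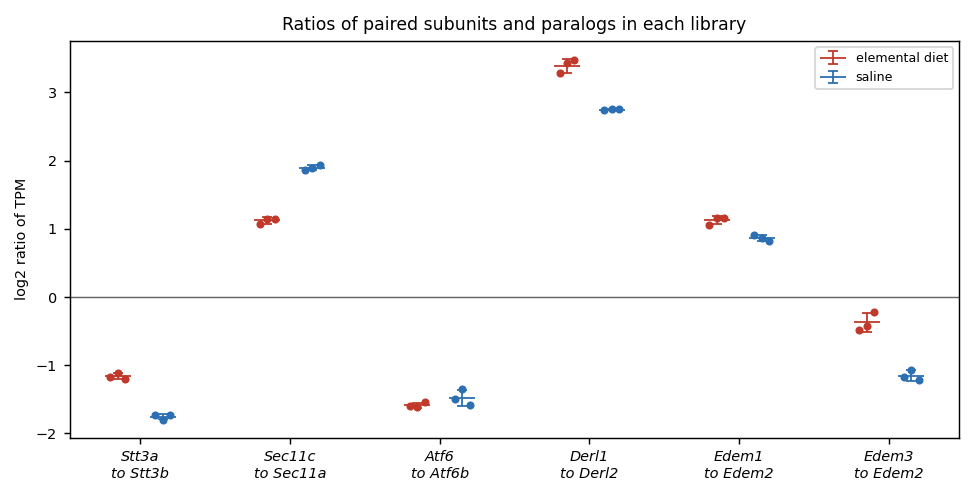
Log2 ratio of TPM of each pair in each library (points), with the mean and SD of each group of 3 libraries, elemental diet left of saline. Stt3a to Stt3b, Derl1 to Derl2 and both Edem ratios are higher with elemental diet, Sec11c to Sec11a is lower, and Atf6 to Atf6b overlaps.

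Of the 8 genes of lectin and disulfide folding 5 rose, 2 fell and Pdia5 did not pass. Calr, calreticulin, the soluble lectin chaperone (chromosome 8, 84841850 to 84846934), stood at 773, 786 and 748 CPM with elemental diet, against 452, 439 and 464 CPM with saline (log2 fold change 0.77 with SE 0.04, adjusted p = 1.40e-09). Canx, calnexin, its membrane-bound relative (chromosome 11, 50293961 to 50325673), stood at 517, 529 and 557 CPM with elemental diet, against 231, 241 and 243 CPM with saline (log2 fold change 1.16 with SE 0.05, adjusted p = 3.14e-11). Both rose under all 4 scalings. Pdia3, the disulfide isomerase that works with these lectins, rose 1.34-fold, and P4hb, the classical protein disulfide isomerase, 1.43-fold. Pdia6 stood at 214, 217 and 203 CPM with elemental diet, against 158, 162 and 161 CPM with saline (log2 fold change 0.40 with SE 0.05, adjusted p = 2.72e-06), and its log2 fold change was 0.13 (adjusted p = 0.0167) with upper quartile scaling and 0.092 (adjusted p = 0.0718) with library totals alone.

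Pdia4, an isomerase that is induced by ER stress (chromosome 6, 47796141 to 47813430), went against its relatives. It stood at 96.6, 91.4 and 88.3 CPM with elemental diet, against 161, 165 and 173 CPM with saline (log2 fold change -0.85 with SE 0.05, adjusted p = 2.29e-09), 1.81-fold lower and without overlap. Erp44, which retrieves escaping oxidoreductases to the ER, was also lower, at 77.4 ± 5.38 CPM with elemental diet and 90.1 ± 0.901 CPM with saline (SD, n = 3 libraries each, log2 fold change -0.22 with SE 0.06, adjusted p = 0.00273). Pdia5, the least abundant of the 45 genes per length, stood at 9.63, 9.12 and 8.13 CPM with elemental diet, against 7.89, 9.25 and 9.20 CPM with saline, and the groups overlapped (adjusted p = 0.836).

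Of the 4 partners of BiP and small stress-induced proteins, Sdf2l1, Manf and Hyou1 rose by the main test and Creld2 did not pass. Sdf2l1, a partner of the BiP cochaperone Dnajb11, stood at 54.3, 54.2 and 49.96 CPM with elemental diet, against 33.1, 34.1 and 33.4 CPM with saline (log2 fold change 0.66 with SE 0.06, adjusted p = 1.57e-07). Manf, a secreted factor that binds BiP, rose to 133 ± 5.58 CPM with elemental diet, against 93.7 ± 3.53 CPM with saline (SD, n = 3 libraries each). The Manf row overlaps Dcaf1 and Rbm15b, which rose by 0.97 and 0.87 on the log2 scale, and their part in its value was not tested. Creld2, a stress-induced isomerase-like protein, stood at 58.3, 55.9 and 47.8 CPM with elemental diet, against 58.4, 61.3 and 60.8 CPM with saline, and did not pass (log2 fold change -0.15 with SE 0.07, adjusted p = 0.0564). Under upper quartile scaling and library totals it was lower, with log2 fold changes of -0.43 (adjusted p = 2.70e-04) with upper quartile scaling and -0.46 (adjusted p = 2.29e-04) with library totals alone.

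Hyou1, the nucleotide exchange factor of BiP known as GRP170, stood at 111, 116 and 113 CPM with elemental diet, against 101, 107 and 105 CPM with saline (log2 fold change 0.12 with SE 0.05, adjusted p = 0.0298). Its groups did not overlap, yet its direction was not settled, since the log2 fold change was -0.15 (adjusted p = 0.00583) with upper quartile scaling and -0.18 (adjusted p = 0.00119) with library totals alone. The call was also lost without elemental diet replicate 2, saline replicate 1 or saline replicate 2 (adjusted p = 0.0687, 0.139 and 0.0516).

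Of the 8 ERAD genes 5 fell, 1 rose and 2 did not pass, and the 5 falls were called under all 4 scalings. Syvn1, the ubiquitin ligase HRD1 at the centre of the pathway (chromosome 19, 6046576 to 6053712), stood at 72.00, 78.5 and 79.2 CPM with elemental diet, against 149, 142 and 138 CPM with saline (log2 fold change -0.90 with SE 0.05, adjusted p = 1.96e-09). This fall, 1.87-fold, was the largest of the 45 genes. Its neighbour on the other strand, Mrpl49, shares 91 exon bases with it and rose by 1.68 on the log2 scale. Sel1l, the adaptor of that ligase, fell as well, at 89.6, 91.7 and 93.7 CPM with elemental diet, against 111, 113 and 113 CPM with saline (log2 fold change -0.29 with SE 0.05, adjusted p = 6.62e-05). Herpud1, which helps to assemble the complex and is induced by stress, stood at 61.6, 57.5 and 55.2 CPM with elemental diet, against 88.1, 97.1 and 92.5 CPM with saline, 1.59-fold lower. In all 3 genes every elemental diet library lay below every saline library.

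The Edem genes trim mannose from misfolded glycoproteins and mark them for removal. Edem1 stood at 168, 189 and 179 CPM with elemental diet, against 217, 219 and 235 CPM with saline (log2 fold change -0.33 with SE 0.05, adjusted p = 9.38e-05). Edem2, which starts the trimming, stood at 46.2, 47.97 and 46.2 CPM with elemental diet, against 74.9, 75.3 and 83.1 CPM with saline (log2 fold change -0.73 with SE 0.06, adjusted p = 3.61e-08). Edem3 stood at 58.4, 63.5 and 68.8 CPM with elemental diet, against 54.00, 59.2 and 59.9 CPM with saline, with overlapping groups, and did not pass with TMM (adjusted p = 0.0706). It was called higher with RLE (adjusted p = 0.0277) and lower with library totals (adjusted p = 0.0169).

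Derl1 was the member of the pathway that rose. It stood at 190.4, 208 and 214 CPM with elemental diet, against 126, 121 and 126 CPM with saline (log2 fold change 0.72 with SE 0.05, adjusted p = 2.14e-08), higher under all 4 scalings. Its paralog Derl2 stood at 48.4, 49.4 and 49.4 CPM with elemental diet, against 49.7, 46.6 and 49.2 CPM with saline, with overlapping groups (adjusted p = 0.791), and its log2 fold change was -0.26 (adjusted p = 5.69e-04) with upper quartile scaling and -0.29 (adjusted p = 2.01e-04) with library totals alone. Derl2 shares 231 exon bases, 2.87% of its own, with Mis12 on the other strand. Mis12 rose by 1.24 on the log2 scale, and its part in the value of Derl2 was not tested.

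Of 28 further ERAD genes tested, 19 rose and 4 fell, against 38.0% and 40.2% of all genes tested, with a median log2 fold change of 0.36. With library totals alone the split was 12 higher and 11 lower, against 29.5% and 50.6% of all genes, so the balance of this list rests on the scaling. Svip, an inhibitor of the pathway, stood at 58.5, 55.1 and 57.2 CPM with elemental diet, against 6.82, 6.85 and 6.40 CPM with saline (log2 fold change 3.09 with SE 0.07, adjusted p = 9.79e-14). Nploc4, a cofactor of the VCP ATPase that pulls substrates out, rose 2.36-fold and Rnf139, another membrane ubiquitin ligase, 2.18-fold. The 4 that fell, named after their values were seen, were Derl3, the third derlin and 1 of the plasma cell markers (log2 fold change -1.21), the ubiquitin ligase gene Rnf185 (-1.01), Selenos, a selenoprotein that binds VCP (-0.51), and the lectin gene Erlec1 (-0.14). The call for Erlec1 was lost with RLE scaling.

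The cargo receptor genes, whose proteins form 1 complex, moved in opposite directions. Lman1, the transmembrane lectin that carries coagulation factors out of the ER (chromosome 18, 65980754 to 66022580), stood at 121, 129.9 and 132 CPM with elemental diet, against 55.5, 56.1 and 58.3 CPM with saline (log2 fold change 1.17 with SE 0.05, adjusted p = 7.36e-11). Mcfd2, its soluble calcium-binding partner (chromosome 17, 87254658 to 87265935), stood at 38.5, 36.2 and 33.2 CPM with elemental diet, against 49.8, 54.7 and 52.02 CPM with saline (log2 fold change -0.54 with SE 0.07, adjusted p = 5.43e-06). The groups did not overlap in either gene, and both calls held under all 4 scalings. Per length, Lman1 stood at 47.1 ± 1.17 TPM with elemental diet and 25.8 ± 0.785 TPM with saline and Mcfd2 at 32.6 ± 2.91 TPM with elemental diet and 59.3 ± 2.05 TPM with saline (SD, n = 3 libraries each). The gene with the higher TPM thus differed between the groups, while in CPM, not divided by length, Lman1 was the higher in both.

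Levels per length spanned a wide range in both groups. Calr was the highest, at 694 ± 21.96 TPM with elemental diet and 541 ± 11.2 TPM with saline, followed by Pdia3, at 354 ± 6.32 TPM with elemental diet and 348 ± 3.38 TPM with saline (SD, n = 3 libraries each). Next in mean over all libraries came Ddost, at 329 ± 9.52 TPM with elemental diet and 176 ± 4.06 TPM with saline. P4hb stood at 245 ± 3.92 TPM with elemental diet and 227 ± 3.81 TPM with saline and Canx at 289 ± 9.31 TPM with elemental diet and 169 ± 4.43 TPM with saline, and their order was reversed between the groups in mean TPM. The lowest were Derl2, at 14.6 ± 0.369 TPM with elemental diet and 17.99 ± 0.438 TPM with saline, Ern1 as given above, and Pdia5, at 7.21 ± 0.771 TPM with elemental diet and 8.27 ± 0.767 TPM with saline. With elemental diet Ern1 and Pdia5 did not differ beyond their spread. Summed over the 45 genes the level was 5057 to 5182 TPM with elemental diet and 4770.2 to 4841 TPM with saline, while the median TPM of the 45 was 77.5 with elemental diet and 96.3 with saline. The OST sum was 901 to 929.8 TPM with elemental diet and 684 to 707 TPM with saline, and the ERAD sum was 412 to 427 TPM with elemental diet and 603 to 617 TPM with saline.

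**Figure D4:**
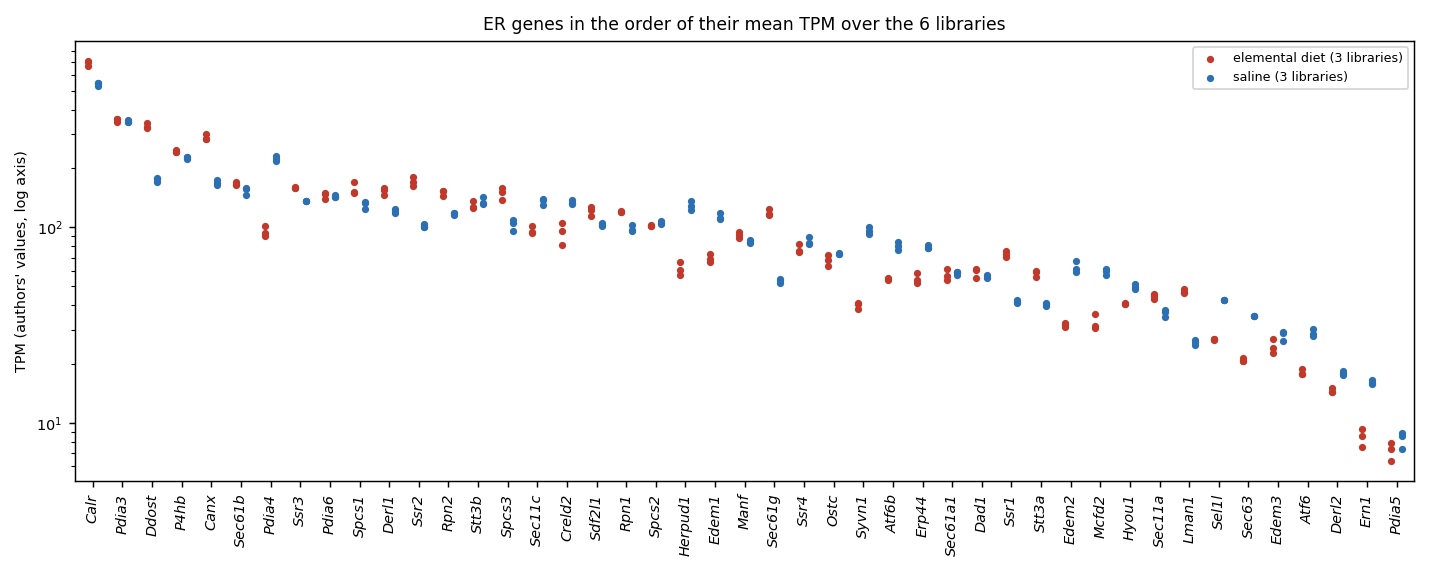
Authors' TPM (log axis) of the 45 genes in each library, in the order of the mean over the 6 libraries, with elemental diet left of saline. Calr and Pdia3 lead, and Derl2, Ern1 and Pdia5 are at the low end, in both groups, while Ddost follows them with elemental diet and stands lower in the order with saline.

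Exon and intron reads were counted separately in the files and gave a further view of the same libraries. Intron reads made up 8.39% to 8.82% of reads with elemental diet and 13.7% to 14.4% with saline. Fitted alone over 14493 genes, intron reads called 15 of the 45 genes higher and 12 lower, against 32.9% of all genes in each direction. Their median log2 fold change in intron reads was -0.014, near the -0.024 of all genes. Of the 7 OST genes intron reads called 2 higher and 5 did not pass, while 3 of the 4 TRAP genes were called higher. The exon and intron fold changes had the same sign in 35 genes and opposite signs in 10, and 26 genes were called in the same direction by both. The matching counts over all genes were not taken, so these do not set the 45 apart from other genes. Syvn1 had a log2 fold change of -0.97 (SE 0.05) for exon reads and -1.06 (SE 0.15) for intron reads. Edem2 had -0.68 (SE 0.06) for exon reads and -1.19 (SE 0.11) for intron reads, and Ddost had 1.21 (SE 0.05) for exon reads and 1.20 (SE 0.17) for intron reads.

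Other genes differed between the readouts. Sec11a was the only gene called in opposite directions, with a log2 fold change of 0.58 (SE 0.06) for exon reads and -0.53 (SE 0.10) for intron reads, adjusted p = 2.77e-07 and 4.85e-05 in this order. Introns held 11.3% of its reads with elemental diet and 29.3% with saline. The Sec11a row overlaps Nmb on the same strand, which fell by 1.62 on the log2 scale, and its part in the intron reads was not tested. Ern1 fell in exon reads and its intron reads did not pass, with -0.63 (SE 0.08) for exon reads and 0.10 (SE 0.14) for intron reads (intron adjusted p = 0.537). Stt3a rose in exon reads, and its intron reads did not pass, with 0.82 (SE 0.05) for exon reads and 0.11 (SE 0.15) for intron reads (intron adjusted p = 0.506). Herpud1 had -0.78 (SE 0.06) for exon reads and -0.30 (SE 0.16) for intron reads (intron adjusted p = 0.0908). Hyou1 had 0.011 (SE 0.05) for exon reads and 0.47 (SE 0.24) for intron reads, so that its small rise in total reads was not seen in exon reads (exon adjusted p = 0.833).

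**Figure D5:**
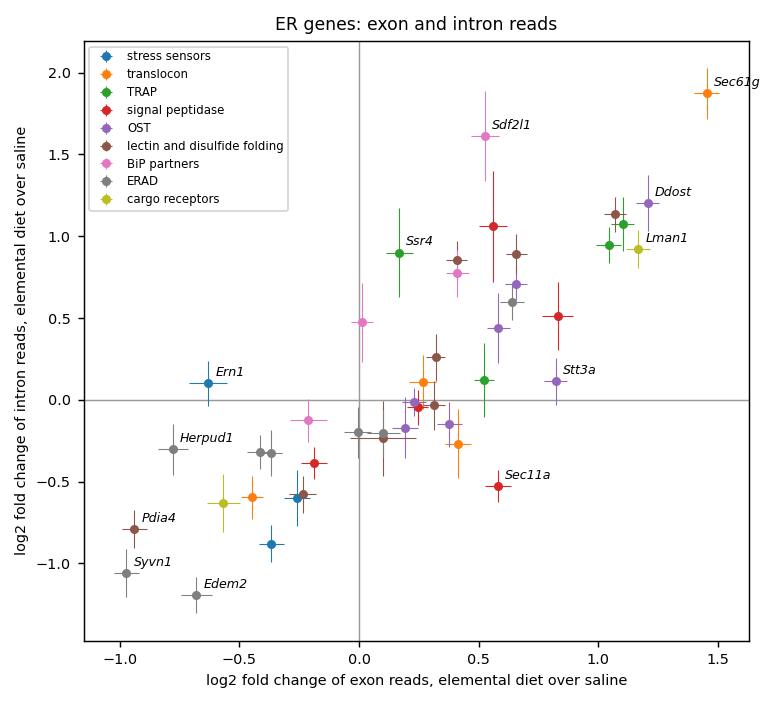
Log2 fold change of intron reads against that of exon reads for the 45 genes, elemental diet over saline, coloured by role, with standard errors as bars. Most points lie in the lower left and upper right, and Sec11a lies at 0.58 on the exon axis and -0.53 on the intron axis.

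The rest of the pathway was read from lists of further ER genes drawn up by role. Of 169 tested, 104 rose and 43 fell, against 38.0% and 40.2% of all genes tested, with a median log2 fold change of 0.39. With library totals alone 78 rose and 64 fell, against 29.5% and 50.6% of all genes. The lists that follow are to be read beside these shares. Targeting and insertion had the most even direction, with 24 of 27 higher and 1, Tram2 (-1.29), lower, and a median of 0.60. With library totals it had 17 higher and 4 lower. Get4, which hands tail-anchored proteins to the ER, stood at 139 ± 6.46 CPM with elemental diet and 52.7 ± 1.73 CPM with saline (SD, n = 3 libraries each). It rose 2.65-fold. Emc8 and Emc9, alternative subunits of the membrane insertase EMC, rose 2.17-fold and 4.25-fold.

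Of 35 genes that build and transfer the glycan 21 rose and 6 fell (median 0.32), and library totals gave 17 higher and 11 lower. Uap1, which makes the sugar nucleotide UDP-GlcNAc, stood at 83.2 ± 2.25 CPM with elemental diet and 34.2 ± 1.32 CPM with saline, and Alg6, the first glucosyltransferase of the lipid-linked glycan, at 37.5 ± 2.26 CPM with elemental diet and 13.5 ± 0.505 CPM with saline (SD, n = 3 libraries each). Their rises were 2.43-fold and 2.78-fold. Of 32 genes of folding and glycan trimming 16 rose and 13 fell (median 0.35), and library totals gave 14 higher and 14 lower. Mogs, the glucosidase that removes the outermost glucose, rose 3.04-fold. Ero1lb, an oxidase that drives disulfide formation, fell to 29.6 ± 2.09 CPM with elemental diet, against 120.4 ± 0.685 CPM with saline. Pdia2, a disulfide isomerase known from pancreas, stood at 35.2, 37.01 and 39.6 CPM with elemental diet, against 0.347, 0.420 and 0.616 CPM with saline (log2 fold change 6.33 with SE 0.15, adjusted p = 9.70e-14). Of 29 genes of export in COPII vesicles 17 rose and 10 fell (median 0.32), while library totals gave 11 higher and 13 lower. Those with the smallest p were higher under all 4 scalings, with rises of 2.43-fold for Tfg, which organises exit sites, 1.84-fold for the coat gene Sec13 and 1.91-fold for the cargo receptor gene Tmed2.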

How the data were processed

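Polyadenylated RNA was sequenced as paired reads of 75 bp, per the labels' protocols. The authors deposited, per the file headers, whole-number read counts per gene (total, unique, exon and intron) and a TPM value. The TPM followed total exon reads per exon length, with reads not counted as unique included. GRCh37 and GRCm38 are the builds in the submitters' processing notes. Aligner, counting tool and strand setting: not given in the sources used here. Coordinates are those of the files, and 42 of the 45 genes had the same start and end in GENCODE M21 (GRCm38).

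Total gene reads of the 6 libraries were fitted with edgeR 4.0.16 in R 4.3.3 (filterByExpr, TMM, robust glmQLFit, two-sided glmQLFTest, Benjamini-Hochberg over the 18303 genes tested). All 45 genes passed the filter. The SE is the absolute log2 fold change over the square root of F. DESeq2 1.42.0, limma 3.58.1 on log2(TPM + 1), other scalings, exon, intron or unique reads, a replicate block and leaving out each library were alternatives. The test was tried on simulated counts in which only a small part of the genes changed. In these data most genes were called, so the trial does not bear on the choice of scaling. No pair of replicates was alike to sampling noise (median chi-square at least 2.79 times that of noise). Each of 6 ratios was tested by an exact permutation test, with p-values adjusted over the 6.

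Values in each library were given, by rule, for the sensors, the most abundant and the most changed gene of each role, the paired genes and genes whose call changed with the scaling, and the 3 smallest p of each further ER list were named. Outside that rule, values in each library were added for Sec63, Ssr2, Rpn2, Pdia4, Pdia5, Sel1l and Herpud1, and for some further ER genes. The genes and lists were chosen with earlier results of these data known.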

Additional observations from a re-analysis of the deposited data

How the results depend on the processing

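Leaving out 1 library at a time gave 13770 to 14675 called genes in all, 27 to 29 of the 45 ER genes higher and 12 to 13 lower, and 98 to 104 of the further ER genes higher and 38 to 43 lower. A test against a fold of 1.5 left 9294 genes (50.8% of all tested), 13 and 4 of the 45, and 47 and 17 of the 169 further genes. Both the 45 and the further genes passed it less often than all genes tested. With limma on log2(TPM + 1), where no scaling corrects for composition, 16 of the 45 were higher and 16 lower. In that fit 13821 of all genes tested were called in either direction, and their split by direction was not taken. Log2 fold changes that turned sign there were Sec61a1 -0.034, Ssr4 -0.13, Spcs2 -0.051, Ostc -0.11, Stt3b -0.068, Pdia5 -0.18, Hyou1 -0.28, Edem3 -0.19, Derl2 -0.29. With library totals alone they were Ssr4 -0.024, Spcs2 -0.0020, Ostc -0.043, Stt3b -0.066, Pdia5 -0.28, Hyou1 -0.18, Edem3 -0.17, Derl2 -0.29, and with upper quartile scaling Ostc -0.0067, Stt3b -0.029, Pdia5 -0.24, Hyou1 -0.15, Edem3 -0.13, Derl2 -0.26. Derl2 also turned with exon reads (-0.0063), unique reads (-0.020) and without saline replicate 2, where its range with 1 library left out was -0.026 to 0.041. Pdia5 turned without elemental diet replicate 1 (-0.0086) or saline replicate 1, with a range of -0.057 to 0.11. The numbers of the replicates did not pair the libraries (correlations of deviations 0.12, -0.0080, 0.06 for the same number), and with the replicate block 29 of the 45 were higher and 14 lower, adding Edem3 and Creld2. With that block 14241 of all genes tested were called in either direction. The 6 paired ratios kept their sign with total reads in place of TPM and with 1 library left out. In the part of the window nearest to the start an ERSE lay in 2 genes. RLE scaling, DESeq2 and no filter on low counts turned no sign among the 45.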

Other observations

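Several families among the further ER genes held members called in opposite directions. They were chosen after their values were seen. Ero1l, the broadly expressed disulfide oxidase, stood at 67.8, 74.4 and 76.2 CPM with elemental diet, against 37.2, 39.7 and 38.5 CPM with saline. Its log2 fold change was 0.92 (SE 0.06, adjusted p = 5.01e-09), whereas its paralog Ero1lb, described above, was 4.07-fold lower. Tram1, a membrane protein beside the translocon, rose 1.23-fold, a call lost with upper quartile scaling and library totals, whereas Tram2 fell 2.45-fold. Among the thioredoxin-related transmembrane proteins Tmx1 rose 3.23-fold and Tmx4 2.40-fold, while Tmx3 had a log2 fold change of -0.30 (adjusted p = 1.10e-04). The log2 fold changes of the thioredoxin-domain genes Txndc5, Txndc11 and Txndc12 were -0.88, -0.87 and -0.92, and all 3 fell.

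The retrieval receptors of ER proteins rose together, with log2 fold changes of 0.35 for Kdelr1, 0.96 for Kdelr2 and 1.37 for Kdelr3 (edgeR adjusted p = 1.94e-05, 2.45e-09 and 0.00113 in this order). The call for Kdelr1 was lost with upper quartile scaling and library totals. The coat genes of COPII vesicles did not share a direction. Sec23a and Sec23b of the inner coat rose 1.42-fold and 1.47-fold. The cargo-binding Sec24a, Sec24b and Sec24d fell 1.46-fold, 1.30-fold and 1.29-fold. Of the outer coat Sec31a fell 1.38-fold while Sec13 rose. The scaffold genes Sec16a and Sec16b fell 1.64-fold and 3.00-fold, where Sec16b was low, at 1.36 ± 0.460 CPM with elemental diet and 4.09 ± 0.123 CPM with saline. The marker lists given above differed between the same groups as these genes, and their part was not tested.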
